A study of Mus musculus with 6 samples.

Results

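Regions of open chromatin far from every protein-coding gene start were examined by ATAC-seq in cells that the paper calls skeletal stem and progenitor cells (SSPCs). In this assay a transposase cuts accessible DNA, so that sequenced fragments pile up there. Marrow was taken from the hindlimb bones (tibia, femur) of C57BL/6 mice, and the adherent cells were profiled at passage 1 without any treatment. There were 3 libraries from young and 3 from middle-aged mice. The labels give age only in these words and do not name the animals behind each library, so every p-value measures the spread between these libraries. The marrow was plated without a sort, and the libraries are bulk samples, in which fewer cells of a type and less open chromatin per cell cannot be told apart.

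Peaks of the 6 lists that overlapped by at least 1 bp were merged into 63840 regions, and 22403 of these had a peak in all 6 libraries. Of these shared regions, 2476 (11.1%) had their midpoint outside every protein-coding gene and more than 50 kb from every protein-coding transcription start site (TSS) of the GENCODE annotation of build mm10. They are called far shared regions here, and distances are measured from their midpoints. They were chosen by the presence of a peak in every library and by position, so that presence is no result. Of the other shared regions, 10221 lay within 1000 bp of a protein-coding TSS, 6034 lay in a gene body away from a TSS, and 3672 lay outside genes but no more than 50 kb from a TSS.

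Open chromatin far from genes is often made of enhancers, stretches where transcription factors bind and from which they can raise transcription of a gene at a distance. Some distant sites instead bind CTCF, which holds chromatin loops in place, or are start sites of noncoding RNAs. Factors leave short recognition words in such DNA. AP-1 (Fos and Jun proteins) answers growth and stress signals, PU.1 (encoded by Spi1) directs macrophage and other blood lineages, the CEBP family acts in fat and myeloid cells, and RUNX factors act in bone and blood. The nearest gene is used below only as a landmark, since an enhancer need not act on it.

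The sequences below show what these regions contain, as 200 bases of the plus strand of mm10 centred on the median summit of the 6 libraries. For each factor the region shown is the one (or, for AP-1 and PU.1, the pair) of highest mean rank that holds its word in this window, is not shown already and lies more than 1000 bp from every GENCODE start. The last 2 are the highest-ranked region at a long noncoding RNA (lncRNA) start and the region farthest from any protein-coding TSS. Capitals mark only the word named, read on either strand, and the lncRNA start holds none marked.
AP-1, chr7:58399157-58399356, nearest gene Atp10a: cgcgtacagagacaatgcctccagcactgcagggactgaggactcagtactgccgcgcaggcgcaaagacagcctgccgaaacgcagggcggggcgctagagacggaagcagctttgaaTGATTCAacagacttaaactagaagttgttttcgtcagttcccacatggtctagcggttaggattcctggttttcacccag
AP-1, chr5:16469977-16470176, nearest gene Hgf: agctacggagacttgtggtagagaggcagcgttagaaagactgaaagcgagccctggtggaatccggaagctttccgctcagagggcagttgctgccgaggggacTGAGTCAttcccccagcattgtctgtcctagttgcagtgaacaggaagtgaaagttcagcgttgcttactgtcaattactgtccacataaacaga
PU.1, chr13:90516021-90516220, nearest gene Atp6ap1l: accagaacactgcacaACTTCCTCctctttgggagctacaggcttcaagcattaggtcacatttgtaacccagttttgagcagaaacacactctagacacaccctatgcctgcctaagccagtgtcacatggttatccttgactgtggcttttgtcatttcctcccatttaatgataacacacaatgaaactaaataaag
PU.1, chrX:117770431-117770630, nearest gene Tgif2lx2: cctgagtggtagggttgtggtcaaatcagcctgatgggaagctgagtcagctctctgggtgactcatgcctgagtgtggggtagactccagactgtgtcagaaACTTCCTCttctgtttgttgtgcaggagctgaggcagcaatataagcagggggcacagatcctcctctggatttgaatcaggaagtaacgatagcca
CEBP, chr14:120137835-120138034, nearest gene Oxgr1: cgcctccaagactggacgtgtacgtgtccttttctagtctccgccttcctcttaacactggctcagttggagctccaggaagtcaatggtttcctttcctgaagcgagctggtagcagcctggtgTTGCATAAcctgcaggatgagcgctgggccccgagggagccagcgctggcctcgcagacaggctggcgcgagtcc
RUNX, chr2:53668683-53668882, nearest gene Rprm: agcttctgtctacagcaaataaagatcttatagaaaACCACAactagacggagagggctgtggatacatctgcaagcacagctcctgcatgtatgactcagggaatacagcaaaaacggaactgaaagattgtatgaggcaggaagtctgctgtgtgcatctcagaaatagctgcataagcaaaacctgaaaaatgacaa
CTCF, chr7:73618401-73618600, nearest gene Chd2: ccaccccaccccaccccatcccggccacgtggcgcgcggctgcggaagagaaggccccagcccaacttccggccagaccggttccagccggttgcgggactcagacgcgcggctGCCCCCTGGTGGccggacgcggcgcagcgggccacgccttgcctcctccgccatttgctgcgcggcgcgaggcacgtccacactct
lncRNA start, chr1:7397967-7398166, nearest gene Pcmtd1: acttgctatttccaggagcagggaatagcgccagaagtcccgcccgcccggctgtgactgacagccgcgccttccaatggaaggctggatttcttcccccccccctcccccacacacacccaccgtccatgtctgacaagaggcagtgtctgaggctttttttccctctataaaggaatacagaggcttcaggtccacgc
Farthest region, with an AP-1 word, chr14:82065336-82065535, nearest gene Olfm4: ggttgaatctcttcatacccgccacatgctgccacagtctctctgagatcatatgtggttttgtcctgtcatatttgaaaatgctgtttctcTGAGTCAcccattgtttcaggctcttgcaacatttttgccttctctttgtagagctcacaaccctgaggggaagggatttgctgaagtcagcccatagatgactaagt

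The fold enrichment of a peak is the pileup of reads at its summit over the local background, as the authors' peak caller gave it. In the region near Hgf, which encodes hepatocyte growth factor, young 1, 2 and 3 had a fold of 16.6, 16.3 and 17.1, and middle-aged 1, 2 and 3 had 18.2, 16.1 and 15.3. Libraries are given in this order throughout. In the region near Atp6ap1l it was 19.6, 22.0 and 17.9 in the young and 17.2, 21.3 and 21.3 in the middle-aged libraries. The age groups overlapped in both regions. The CTCF region near Chd2, a chromatin remodelling gene, was lower and even, at 10.5, 11.5 and 11 in the young and 10.6, 11.1 and 11.6 in the middle-aged libraries.

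The far shared regions were spread thinly. Positions that meet the distance limit make up 1148 Mb (42.1%) of the 2726 Mb of the 21 chromosomes and held 2.16 shared regions per Mb, against 12.6 per Mb elsewhere. Density differed between chromosomes. Chromosome 10 held 3.96 per far Mb, chromosome 13 held 3.83 and chromosome 2 held 3.34, while chromosome X held 0.476 and chromosome Y a single region. The median distance to the nearest protein-coding TSS was 115 kb, with quartiles of 74.3 and 209 kb. Of the 2476 regions, 1066 lay 50 to 100 kb away, 750 lay 100 to 200 kb away, 522 lay 200 to 500 kb away, 109 lay 500 to 1000 kb away and 29 lay beyond 1000 kb. Regions upstream of their nearest TSS numbered 1326 (53.6%) and those downstream 1150. Neighbouring far shared regions were under 10 kb apart in 384 of 2455 cases (15.6%).

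**Figure D1:**
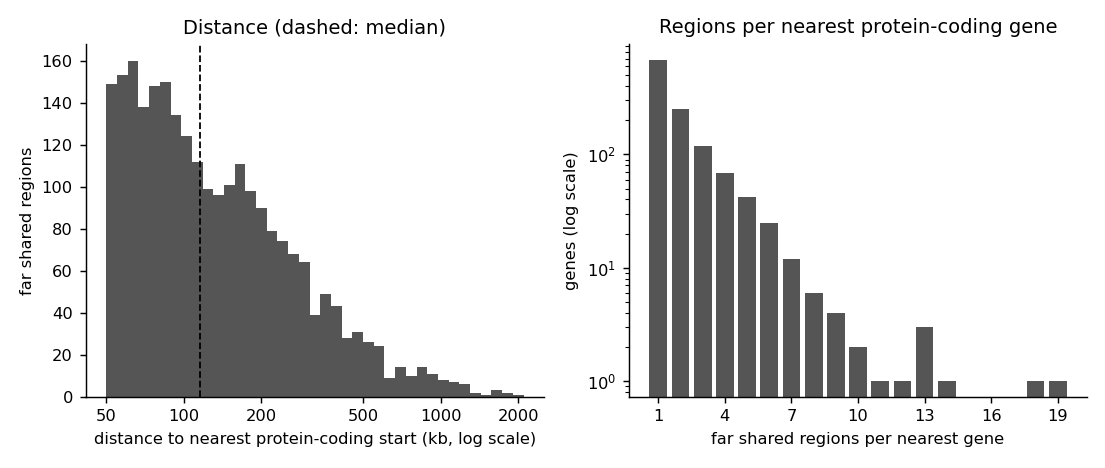
Left, number of far shared regions by distance to the nearest protein-coding start (kb, log scale), with the median of 115 kb dashed. Right, number of nearest genes (log scale) by how many far shared regions they have: 683 genes have 1 and Cited2 has the most, 19.

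The 5 regions farthest from a protein-coding TSS lay in gene deserts on chromosomes 14, 5, 1 and 3. The farthest, at chr14:82065206-82065697, was 2065 kb downstream of Olfm4, which encodes a secreted glycoprotein. Its fold was 8.63, 12.6 and 6.80 in the young and 11, 10.3 and 12.4 in the middle-aged libraries. The groups overlapped, and young 3 was the lowest library. The region at chr5:59996556-59997155 lay 1812 kb upstream of G6pd2, a glucose-6-phosphate dehydrogenase gene, and its fold was 16, 15.5 and 13.7 in the young and 15.3, 17.4 and 14.9 in the middle-aged libraries. The region at chr1:101901946-101903024 lay 1805 kb downstream of Cntnap5b, a contactin-associated protein gene. A pair at chr3:48100832-48101315 and chr3:48080587-48081094 lay 1653 and 1633 kb upstream of Pabpc4l, a gene of the poly(A)-binding protein family. The mean percentile rank over the libraries, defined next, was 94.5, 89.0, 92.6 and 87.6 in these 4 regions and 71.6 in the one past Olfm4. Great distance thus went with high as well as moderate values.

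At the limit itself, the regions just inside it were chr11:94161242-94161639, 50014 bp upstream of Tob1, and chr13:62964650-62965046, 50086 bp upstream of 2010111I01Rik. Their mean ranks were 68.3 and 81.6. The region upstream of 2010111I01Rik lay 45 bp from a RefSeq start of the same gene, there named Aopep. The shared regions just outside it lay 49993 bp from Fhdc1 and 49989 bp from Chst14, with mean ranks of 57.8 and 54.8.

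The strength of the far shared regions was compared with that of the other shared regions in the same library. Each peak was given its percentile rank by −log10 q among all peaks of its own list, where 100 is the strongest, and a region took its best peak. The median rank of the far shared regions was 60.5, 68.2 and 48.8 (young) against 68.4, 69.5 and 68.6 (middle-aged). In the other shared regions it was 69.4, 75 and 59.9 and 76.6, 76.6 and 77.6. The far shared regions were thus lower in all 6 libraries, by 8.52 ± 1.54 percentile points (SD, n = 6, exact sign permutation test over libraries, two-sided p = 0.03125, adjusted over 9 such tests p = 0.0352). This p is the smallest that 6 libraries allow. The median log2 fold enrichment was lower by 0.15 ± 0.03 and the median peak by 59.9 ± 13.1 bp narrower (SD, n = 6, both exact p = 0.03125, adjusted 0.0352).

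The direction depended on the class of region compared. Against shared regions at a protein-coding TSS, the far shared regions ranked 19.6 ± 3.41 points lower and were 177 ± 29.4 bp narrower (SD, n = 6, exact p = 0.03125, adjusted 0.0352). Against shared regions in gene bodies they ranked higher in all 6 libraries, by 2.99 ± 0.805 points (SD, n = 6, exact p = 0.03125, adjusted 0.0352). Their peaks were also wider than those in gene bodies, by 15.3 ± 2.40 bp, and their log2 fold was higher by 0.12 ± 0.02 (SD, n = 6, both exact p = 0.03125, adjusted 0.0352). Against intergenic shared regions no more than 50 kb from a TSS, the difference of 1.10 ± 0.969 points was positive in 5 of 6 libraries and did not pass the test (exact p = 0.0625). Among all far regions called in any library, 2476 of 10223 (24.2%) were called in all 6, close to the 24.7% of regions in gene bodies and below the 65.1% of regions at a TSS.

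**Figure D2:**
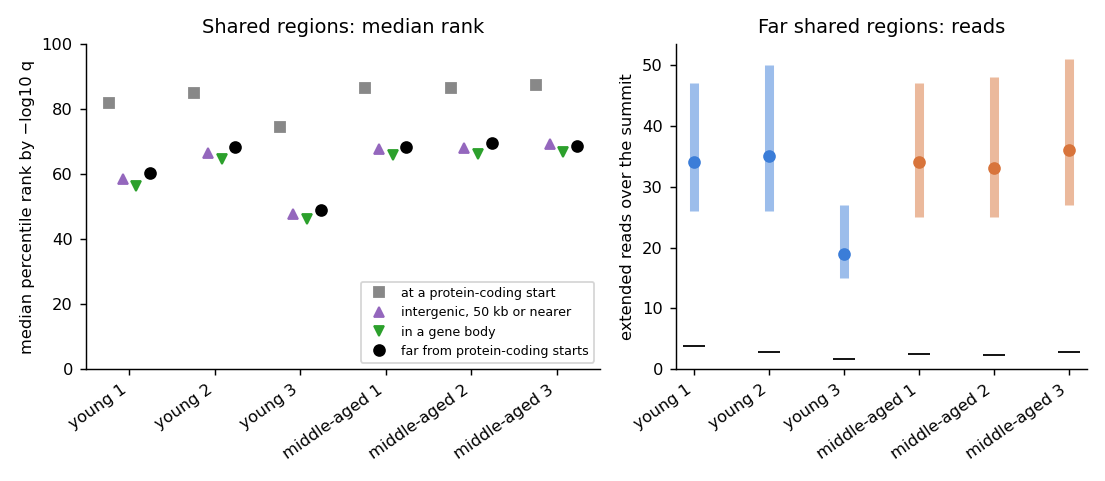
Left, median percentile rank by −log10 q (0 to 100) of 4 classes of shared regions in each library: regions at a start lie on top in every library, and the far regions (black) lie 1.90 to 3.99 points above those in gene bodies. Right, extended reads over the summit of far shared regions, with points for the median, thick bars for the quartiles and dashes for the genome-wide background of the library. The median is 19 in young 3 and between 33 and 36 in the other 5 libraries.

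The reads behind these values can be solved from the deposited fold and −log10 p. The genome-wide background was 3.75, 2.83 and 1.65 extended reads per base in the young and 2.54, 2.40 and 2.79 in the middle-aged libraries, so young 3 was the shallowest. The median far shared region had 34, 35 and 19 reads over its summit in the young and 34, 33 and 36 in the middle-aged libraries, and the lowest one had 9, in young 3. The number of far shared regions was limited by that library, since 3406 regions met the rule without it and between 2510 and 2650 did without any other single library.

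Strength varied widely among the members and hardly with distance. The mean rank over the 6 libraries had a median of 61.5. It was over 90 in 118 members (4.77%), against 18.3% of the other shared regions, and 70 members were over 90 in every library. The median of the mean rank was 61.5 at 50 to 100 kb, 62.7 at 100 to 200 kb, 60.7 at 200 to 500 kb, 57.7 at 500 to 1000 kb and 58.0 beyond. Merged regions had a median width of 473 bp, with quartiles of 393 and 593 bp, against 565 bp for the other shared regions.

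Start sites of other transcripts were frequent among the strongest members. Of the 10 with the highest mean rank, 7 lay within 1000 bp of the start of some annotated transcript, as did 17 of the 39 with a mean rank over 95, against 243 of all 2476 (9.81%). The strongest of all, however, lay away from every GENCODE start, at chr11:109011547-109012166, 88.7 kb downstream of Axin2, a negative regulator of Wnt signalling. Its fold was 22.3, 24.3 and 21.3 in the young and 22.4, 22.4 and 24.3 in the middle-aged libraries, and its lowest rank in any library was 99.4. The nearest annotated start was that of a processed pseudogene, Gm11668, 4205 bp away.

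Others of the 10 were at noncoding starts. The region chr1:7397378-7398539 lay 89 bp from the start of the lncRNA Gm26901, and its fold was 15.5, 17.1 and 15.5 in the young and 17.6, 18.6 and 19.5 in the middle-aged libraries. The region chr3:123508001-123509030 lay 111 bp from the start of Snhg8, a host transcript of small nucleolar RNA, with a fold of 14.5, 15 and 16.6 and of 17.5, 16.7 and 17.8. In both regions every middle-aged library was above every young one before any scaling, and neither difference passed the test given below (limma, adjusted p = 0.978 and 0.982). Gm6420, Gm7461, Gm49326 and Gm10010 gave the starts at chr1:23255897-23257032, chr8:4677253-4678820, chr12:17881325-17882395 and chr6:128200105-128201076.

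The remaining ones of the 10 lay away from starts. The region chr15:85634306-85635198 was 52.3 kb upstream of Wnt7b, which encodes a secreted Wnt ligand, with a fold of 16.5, 16.5 and 15.8 in the young and 18.8, 18.8 and 18.6 in the middle-aged libraries, which did not overlap on this unscaled value (limma, adjusted p = 0.980). The region chr13:90515776-90516405, whose PU.1 word is shown above, was 383 kb downstream of Atp6ap1l. The widest member, chr17:39843141-39846684, spanned 3544 bp and lay 162 bp from the start of the lncRNA Gm26917. It had 836, 701 and 401 reads over its summit in the young and 557, 491 and 762 in the middle-aged libraries, but a fold of only 2.69 to 2.92, since its local background was high. Regions of artefactually high signal were not filtered out here, and whether the reads of this one map to a single place was not tested.

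Noncoding annotation covered a minority of the members. Within 1000 bp of a lncRNA start lay 165 (6.66%), and another 387 lay inside a lncRNA gene away from its start. A total of 1938 (78.3%) lay outside every GENCODE gene, and 644 were more than 50 kb from every GENCODE start, coding or not. Members at a lncRNA start had a median mean rank of 69.6 and a median width of 576 bp, against 60.7 and 465 bp for the 2233 members (90.2%) more than 1000 bp from every GENCODE start. The annotation also set the edge of the class: 2355 members (95.1%) were more than 50 kb from every RefSeq mRNA start as well. Within 1000 bp of one lay 22 members, among them the start of Zswim6 at chr13:107889931-107891380. Another was the start of Aopep, listed in GENCODE as 2010111I01Rik, at chr13:62964650-62965046.

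Few members lay at a RefSeq tRNA gene or overlapped a RefSeq enhancer. A RefSeq tRNA gene lay within 500 bp of 3 members (0.121%), against 99 (0.497%) of the other shared regions. These 3 lay near Atp10a (a tRNA for glutamic acid, in the region whose AP-1 word is shown above), near Gpd2 (alanine) and near Mrtfb (threonine), and their mean ranks were 98.1, 92.1 and 89.7. RefSeq holds 1019 enhancers with experimental evidence on these chromosomes, and 13 members (0.525%) overlapped one, against 79 (0.396%) of the other shared regions. For 4 of the 13 the tissues given include the limb.

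The base composition of the members resembled that of regions in gene bodies. In windows of 300 bp on the summit, the median GC content was 47.3% in far shared regions, 49.0% in gene bodies, 65.0% at a TSS and 43.0% in windows 2000 bp to either side of the far regions. The ratio of observed to predicted CpG dinucleotides had a median of 0.222 in far regions and 0.825 at a TSS. Repeats marked in the genome filled 11% of the far windows on average and 27.5% of their flanks. A GC content over 60% was found in 135 members, whose median width was 660 bp and whose median mean rank was 75.4. Of these, 63 lay within 1000 bp of an annotated start.

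Words of transcription factors were counted in the same windows on both strands, as descriptions of sequence and not as binding. The AP-1 word TGANTCA was in 30.0% of far shared regions (95% Wilson interval 28.2 to 31.8), against 25.2% of regions in gene bodies, 4.64% at a TSS, 16% of all shared regions and 9.78% of the flanks. The PU.1 word GAGGAAGT was in 14.5% (13.2 to 15.9), against 15.6%, 3.68%, 9.53% and 1.96% in the same order. The CEBP word TTGCNNAA was in 21.9% (20.3 to 23.6), against 19%, 7.15%, 13.8% and 13.7%. The RUNX word TGTGGT was in 32.4% (30.6 to 34.3), against 32.4%, 10.8%, 22.0% and 20.7%. These 4 words were thus more frequent in the far regions than beside them, by 7.40 times for PU.1, 3.06 times for AP-1, 1.59 times for CEBP and 1.56 times for RUNX.

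A CTCF word, one of a set of long words around the core of that factor's motif, was in 99 members, 4.0% (3.3 to 4.84), against 4.83% of all shared regions and 0.646% of the flanks. Words typical of start sites were scarce. The SP/KLF word GGGGCGGGG was in 2.3% of far regions and 25.9% of regions at a TSS, and the ETS word CCGGAAGT, which shares its last 6 bases with the PU.1 word but cannot coincide with it, in 0.767% and 8.78%. The RBPJ word TGGGAA, of the factor through which Notch receptors act on genes, was in 27.1% of far regions and 25.8% of their flanks. The TEAD word GGAATG was in 16.9% and 16.2%. The E-box CAGCTG was in 21.4% and 12%, the MEF2 word in 3.51% and 2.34%, and the EBF word in 0.687% and 0.566%. The NFY word CCAAT, at 30.6% and 38.0%, and the homeobox word TAATTA, at 5.78% and 9.72%, were less frequent in the regions than beside them. The long NFI word was found in 1 member and the YY1 word in 5.

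Some of the words stood near the summit. Within 50 bp of the centre lie 100 of the 300 bp of a window. A CTCF word lay there in 78.8% of the members that held one, a PU.1 word in 65.7% and an AP-1 word in 61.2%, against 39.1% for RBPJ, 39.0% for TEAD, 37.1% for NFY and 16.8% for homeobox. An AP-1 or a PU.1 word was in 1016 members (41.0%), and 85 held both. None of the AP-1, PU.1, CEBP and RUNX words was found in 779 members (31.5%).

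**Figure D3:**
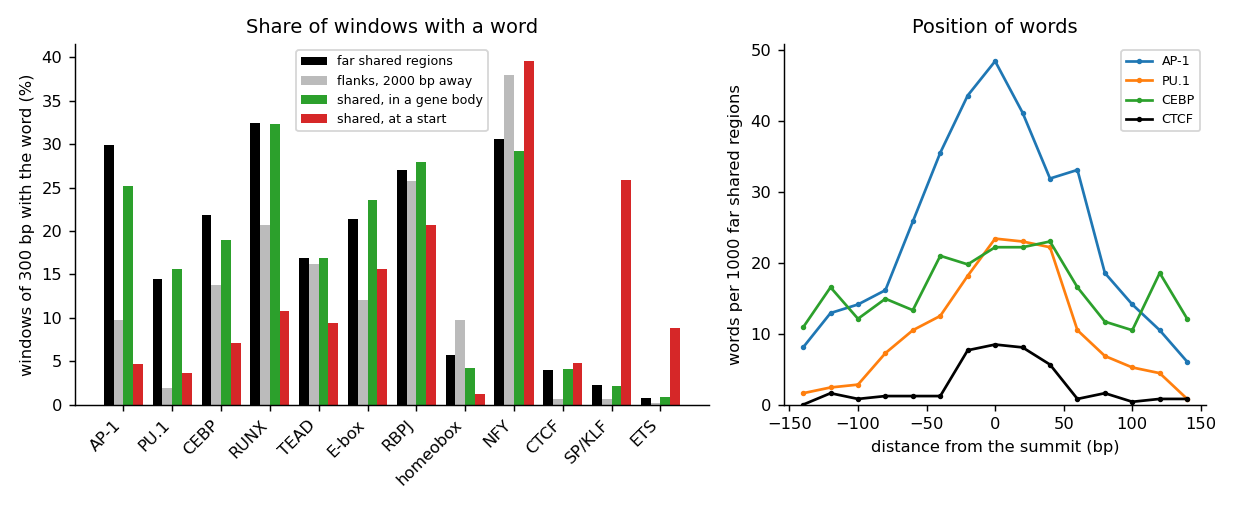
Left, percent of 300 bp windows that hold each word in far shared regions, in their flanks, in shared regions in gene bodies and in shared regions at a start. AP-1 and PU.1 stand out over the flanks (30.0% against 9.78%, and 14.5% against 1.96%), while SP/KLF and ETS are high at starts. Right, number of words per 1000 far shared regions by distance from the summit in bins of bp, with AP-1, PU.1 and CTCF highest at the centre.

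Of the 12 words found in 50 or more members, SP/KLF and PU.1 went with a higher median rank in all 6 libraries. For SP/KLF the difference from the members without the word ran from 6.76 to 14.8 percentile points, on 57 members. Members with a PU.1 word ranked higher, by 5.52, 4.72 and 8.88 percentile points in the young and 3.68, 3.93 and 2.62 points in the middle-aged libraries. For members with a CTCF word the same difference was −7.88, −5.83 and −12.4 points in the young and −2.59, −2.13 and −0.422 points in the middle-aged libraries. For AP-1 it ran from −3.19 to −0.595 points, for TEAD from −7.93 to −2.53, for RBPJ from −2.90 to −1.31 and for homeobox from −3.66 to −0.697 points, also below 0 in all 6 libraries. With RUNX the sign varied between libraries. Of the 826 members of highest mean rank 17.9% held a PU.1 word, against 12.2% of the 825 of lowest mean rank, and 2.78% against 4.48% held a CTCF word. The CTCF share was 4.97% at 50 to 100 kb, 4.0% at 100 to 200 kb, 2.68% at 200 to 500 kb and 1.45% beyond, and the AP-1 share was 28.6%, 31.1%, 29.7% and 35.5%. The median GC content was lower with distance too, at 48.7%, 47.3%, 45.7% and 42.7%.

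Peaks at the start sites of marker genes were counted, which does not by itself establish the cell types present. Of 10 SSPC and stromal genes, 8, 6 and 3 had a peak within 1000 bp of a TSS in the young and 6, 7 and 8 in the middle-aged libraries. Only 3 of the 10 had one in all 6 libraries, and the defining genes Lepr and Prrx1 had one in no library. Of 8 macrophage and blood genes (among them Ptprc, Spi1 and Csf1r), 7, 8 and 8 had one in the young and 7 in each middle-aged library, and 7 had one in all 6. Of 4 endothelial genes between 2 and 4 had one in each library, and of 3 T cell genes none had. Start sites of macrophage and blood genes were thus open in every library beside those of stromal genes, and the part of such cells in the PU.1 words and in the far shared regions was not tested.

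The 2476 members had 1221 nearest protein-coding genes. Of these genes, 683 had 1 member, 439 had 2 to 4 and 99 had 5 or more, and those 99 accounted for 661 members. All 6 libraries had a TSS peak at 63.7% of the 1221 genes and at 80.8% of the 99, against 48.4% of all 21853 protein-coding genes. The 10 genes with the most members, with ties ordered by mean rank, were Cited2 (19), Adgrl2 (18), Gm826 (14), Marcks (13), Maf (13), Klf6 (13), Smim15 (12), Klf4 (11), Myc (10) and Kctd12 (10). Of these, Gm826 had no TSS peak in any library, Marcks had one in 5 and the other 8 had one in all 6.

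Members around Cited2, a transcriptional coregulator that binds CBP and p300, were all upstream of it. They spread over 1072 kb, from 62.2 to 1134 kb from the TSS, and the next start on the far side was that of Nmbr, 1829 kb past the last of them. Their median fold was 7.79, 7.83 and 7.55 in the young and 8.47, 8.23 and 8.03 in the middle-aged libraries. Every middle-aged library was above every young one on this unscaled value, as for the median of all far shared regions, whereas the median of their normalized log2 differences was −0.07. Of the 19, 9 held a CEBP word, 8 an AP-1 word and 2 a PU.1 word.

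Adgrl2, an adhesion receptor gene of the latrophilin family, had members on both sides, 13 of them upstream, over 1422 kb. Their median fold was 6.81, 9.05 and 6.94 in the young and 7.84, 9.96 and 8.36 in the middle-aged libraries, and the groups overlapped. The members of Marcks, which encodes an actin-binding substrate of protein kinase C, were all upstream, over 789 kb between Marcks and Rfpl4b. Their median fold was 9.22, 9.39 and 6.51 in the young and 8.84, 10.4 and 9.62 in the middle-aged libraries, with young 3 the lowest. Those of Gm826 lay in the stretch between it and Dhx35, and 7 of the 14 held a CEBP word.

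Several of these genes encode transcription factors. Around Maf, a leucine zipper factor of macrophages and cartilage, the 13 members lay 56.7 to 293 kb from the TSS, and their median fold was 6.15, 7.74 and 7.56 in the young and 7.77, 7.94 and 7.91 in the middle-aged libraries. The 11 members of Klf4, a zinc finger factor used in reprogramming, were all upstream and had a median fold of 7.69, 12 and 10.4 and of 9.54, 9.75 and 10.9. None of these 11 held an AP-1 word. The 13 members of Klf6, a related factor, were weaker, at 5.47, 6.00 and 6.04 and at 6.54, 7.02 and 7.29. The 10 members of Myc, which drives growth, all lay downstream within 405 kb and had a median fold of 7.89, 8.48 and 7.76 and of 8.66, 8.16 and 8.74. The groups overlapped for Klf4 and Myc and not for Maf and Klf6, and on this unscaled value the medians of all far shared regions, given below, did not overlap either. The median normalized log2 difference, tested for single regions below, was −0.03 for Maf and −0.01 for Klf6.

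The members near Smim15, which encodes a small membrane protein, had the highest median mean rank of the 10 groups, 82.0. Their median fold was 9.99, 10.4 and 9.0 in the young and 10.5, 10.3 and 11.3 in the middle-aged libraries, and their mean ranks ran from 34.6 to 97.8. The highest was the start of Zswim6 named above, which counts as far because GENCODE lists no protein-coding transcript there. RefSeq gene bodies were not checked, so whether other members of this group lie inside Zswim6 was not tested. The 10 members of Kctd12, an auxiliary subunit gene of GABA-B receptors, were all downstream, with a median fold of 6.44, 8.22 and 7.17 and of 9.13, 8.44 and 9.23.

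**Figure D4:**
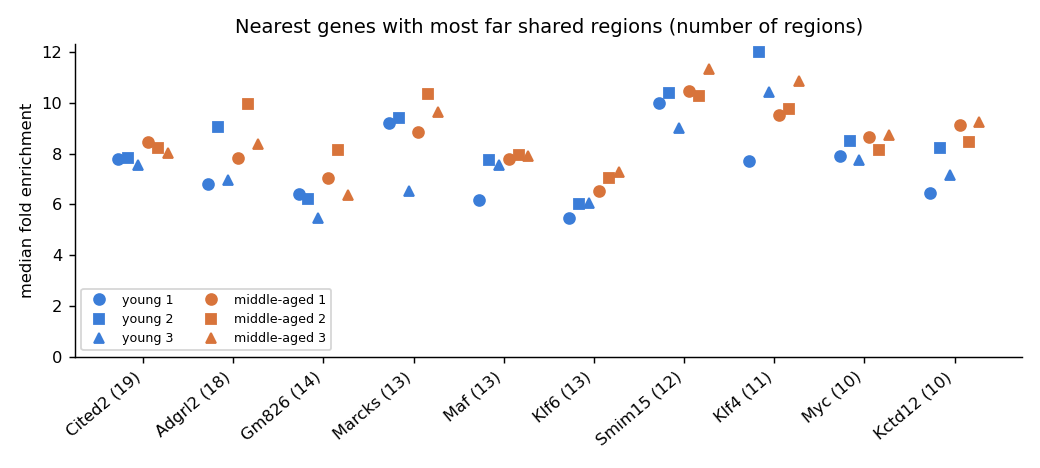
Median fold enrichment of the far shared regions nearest to each of the 10 genes with the most such regions (number in brackets), with 1 symbol per library, blue for young and orange for middle-aged. The regions of Smim15 lie highest in young 1 and in middle-aged 1 and 3, those of Klf4 in young 2 and 3 and those of Marcks in middle-aged 2, and the lowest symbol of each gene is young 1 or young 3.

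The nearest genes were also sorted by lists of known roles. Any gene can be nearest only if a gap of over 50 kb adjoins it, and of all protein-coding gene symbols 1221 of 21829 (5.59%) were nearest to a member. Of 64 skeletal and limb transcription factors, 15 (23.4%) were, with 71 members. After Maf and Klf4 came Zeb2, a repressor of epithelial genes, with 9 members up to 1326 kb upstream, and Id2, an inhibitor of helix-loop-helix factors, with 8. The members of Zeb2 had a median fold of 7.66, 8.94 and 8.31 in the young and 8.60, 8.58 and 9.01 in the middle-aged libraries. Of 37 macrophage and blood genes, 9 (24.3%) were nearest to 39 members, led by Myc, Zeb2, Ptprc and Cebpb. Zeb2 and Runx1 are among the genes that stand in both lists.

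Ptprc encodes CD45, the common antigen of blood cells. Its 6 members lay 136 to 424 kb downstream and had a median fold of 9.64, 11.3 and 11.3 in the young and 11.7, 11.7 and 11.6 in the middle-aged libraries, above the median of all far shared regions in every library and without overlap between the groups on this unscaled value. Their normalized log2 differences ran from −0.71 to 0.15 with a median of −0.06. A PU.1 word was in 4 of the 6 and a RUNX word in 4. The 6 members of Cebpb, a CEBP family gene, lay in 37.4 kb between it and Ptpn1, with a median fold of 5.46, 6.07 and 5.72 and of 6.82, 7.42 and 6.87.

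Of 65 secreted signals and antagonists, 15 (23.1%) were nearest to 32 members. Bmp2, a bone-inducing ligand, had 5, all upstream and 54.2 to 108 kb from its TSS, with a median fold of 8.13, 10.3 and 7.25 in the young and 9.09, 9.57 and 9.27 in the middle-aged libraries. Kitl, the stem cell factor of the marrow niche, had 5, with 7.28, 7.87 and 6.80 and 7.63, 7.86 and 8.06. Inhba, which encodes the activin A subunit, had 4, with 8.27, 8.79 and 7.94 and 8.73, 10.0 and 7.96. Cxcl12, a chemokine of the niche, had 4, all downstream, with 5.59, 5.94 and 5.20 and 6.15, 9.07 and 8.12. The groups overlapped for Bmp2, Kitl and Inhba and, on this unscaled value, not for Cxcl12, whose members had a median normalized log2 difference of 0.11.

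Of 38 adhesion and guidance genes of gene deserts, 12 (31.6%) were nearest to 22 members. This list was drawn up from genes beside large gaps, so its share is no result about their role. Nrp1, a semaphorin and VEGF coreceptor, had 7, with a median fold of 5.68, 7.21 and 6.83 in the young and 6.94, 7.54 and 7.08 in the middle-aged libraries. Efna5 (an ephrin), Epha7 and Epha4 (Eph receptors) had 2 each. Of 28 Notch pathway genes, 5 (17.9%) were nearest to 11 members. Hes1, a repressor switched on by Notch, had 5, with a median fold of 5.49, 7.05 and 6.02 in the young and 6.15, 5.88 and 6.59 in the middle-aged libraries. Rbpj had 3, all upstream and 63.3 to 87.4 kb away, with 6.89, 8.15 and 6.76 and 7.37, 7.02 and 7.95. Hey1, another Notch target, the ligand gene Jag1 and the coactivator gene Maml3 had 1 each, and that of Hey1 had a fold of 7.46, 11.6 and 9.15 and of 10.3, 11 and 10.6. The age groups overlapped for Hes1, Rbpj and Hey1.

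The age groups were then compared. Far peaks, shared or not, numbered 4691, 6274 and 3211 in the young and 6703, 6900 and 7019 in the middle-aged lists, with means of 4725 ± 1532 and 6874 ± 160 (SD, n = 3) and a ratio of 1.45. The lists did not overlap, which gives the smallest p that 3 against 3 allows (exact permutation test, two-sided p = 0.1, adjusted over 12 tests p = 0.171). All lists cut to the 27628 best peaks gave a ratio of 1.01 (exact p = 0.5).

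Averaged by age, the median rank of the far shared regions was 59.2 ± 9.76 (young) against 68.8 ± 0.536 (middle-aged) (SD, n = 3, exact permutation test p = 0.1, adjusted 0.171), a difference of 9.69 points. It was 4.52 points without young 3 and had the opposite sign, at −2.21 points, with equally long lists. The other shared regions differed by 8.82 points, so that the age difference of the far regions exceeded theirs by 0.870 points (exact permutation test p = 0.7). That excess was −0.214 points without young 3 and −2.79 points with equally long lists. The median fold of the far shared regions was 6.53, 8.01 and 6.80 in the young and 8.14, 8.43 and 8.04 in the middle-aged libraries, and the median peak width was 348, 375 and 309 bp and 378, 382.5 and 380 bp (both exact p = 0.1, adjusted 0.171).

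For single regions, the log2 fold enrichment was quantile-normalized over all 22403 shared regions and tested with limma, with Benjamini-Hochberg adjustment over all of them. At an adjusted p under 0.05, 0 members were called higher in middle-aged and 0 higher in young libraries, and the background was the same, with 0% of all shared regions called in each direction. The smallest adjusted p was 0.596. At an unadjusted p under 0.05 there were 221 members (8.93%), 89 higher in middle-aged and 132 higher in young libraries, against 7.49% of all shared regions. Without scaling these counts were 425 and 9, as the median log2 difference of all shared regions then stood at 0.21. The members' median log2 difference was −0.03, against −0.00224 over all shared regions, and 98.5% of members lay within 0.5 log2 units of 0, with a median standard error of 0.14. Percentile ranks tested with limma in place of the fold gave 0 calls as well.

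Before any p, the libraries can be set side by side. Every middle-aged library lay above every young one on the normalized scale in 111 members (4.48%), against 6.26% of all shared regions. Every young library lay above every middle-aged one in 196 (7.92%), against 6.91% of all shared regions. The first share was slightly below and the second slightly above that of all shared regions.

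The members with the smallest p show the size of such differences. Of those higher in middle-aged libraries, a second region in the desert beyond Olfm4, chr14:80749350-80749824, had a fold of 4.63, 4.70 and 4.53 in the young and 7.91, 7.82 and 8.17 in the middle-aged libraries. Its log2 difference was 0.59 ± 0.12 (SE, limma adjusted p = 0.596), on 11 to 21 reads over the summit in the young and 27 to 30 in the middle-aged libraries. The region upstream of 2010111I01Rik lay at the RefSeq start of Aopep, which is the same aminopeptidase gene under another symbol. Its fold was 8.84, 11.7 and 9.38 in the young and 17.9, 14.7 and 16.5 in the middle-aged libraries. The region 90037 bp downstream of Chd7, a chromatin remodeller, had 6.53, 7.57 and 5.29 and 10.7, 10.1 and 12.4. The others lay near St3gal5, a sialyltransferase gene, and Fbxo33, an F-box gene, with log2 differences of 0.51 and 0.44.

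Of those higher in young libraries, the region 654 kb downstream of Serpinb8, a protease inhibitor gene, had a fold of 7.16, 9.66 and 7.18 in the young and 5.37, 5.59 and 6.06 in the middle-aged libraries. Its log2 difference was −0.69 ± 0.12 (SE, limma adjusted p = 0.596). The region chr16:77328850-77329676 lay inside the lncRNA gene Mir99ahg, 4 bp from one of its starts, and had 7.16, 8.88 and 7.18 and 5.65, 5.95 and 6.08. The other 3 lay near Slc10a2, a bile acid transporter gene, Ipo5, an importin gene, and Gpr12, a receptor gene, with log2 differences of −0.63, −0.63 and −0.54. The libraries of the age groups did not overlap in fold in any of these 10 regions, which were picked by their p. The gap was narrowest near Gpr12, with 7.67 in middle-aged 1 and 7.76 in young 1.

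**Figure D5:**
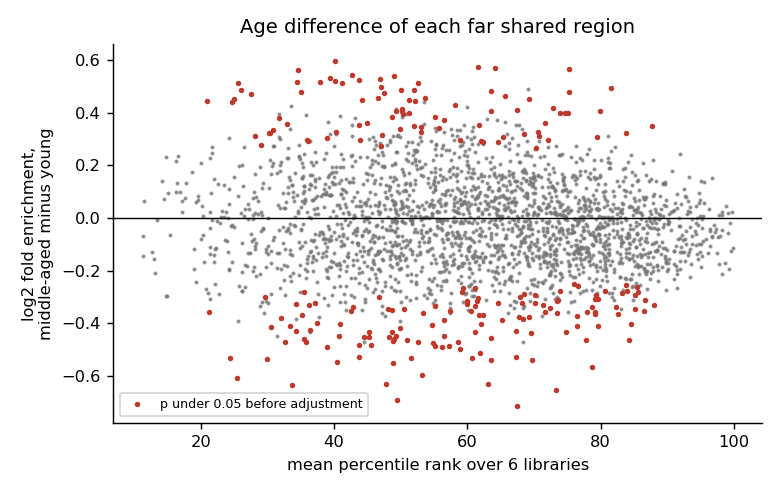
Difference in quantile-normalized log2 fold enrichment, middle-aged minus young, for each far shared region against its mean percentile rank over the 6 libraries. Red points have an unadjusted limma p under 0.05 (221 regions), none passes an adjusted p of 0.05, and the cloud narrows toward high ranks.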

How the data were processed

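The lists of 6 libraries, 3 per age group, were analysed, with groups and replicate numbers as in the titles. Base calling was followed by bcl2fastq conversion, Bowtie2 alignment to mm10, duplicate removal with Sambamba and a MACS peak call for each library, all by the authors. The threshold, the MACS version and any shift for the transposase offset are not given in the sources used here. The deposited fold enrichment is a linear ratio of summit pileup to local background without a control library. The authors deposited −log10 p and −log10 q at the summit and a score that restates −log10 q as a whole number, which was not used. Their differential test needs reads and was not repeated.

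Regions were annotated with GENCODE M21, and RefSeq annotation and sequence of GRCm38 (mm10) gave mRNA starts, tRNA genes, enhancers and bases. A region took its best peak in each library. Medians per library were compared with exact permutation tests, between age groups over the 20 assignments and within libraries over signs. Single regions were tested with limma 3.58.1 in R 4.3.3 on quantile-normalized log2 fold, after a check on simulated data. Reads over a summit were solved as whole numbers from fold and −log10 p under a Poisson model. They gave back the deposited −log10 p to within 0.001 for 99.96% or more of the peaks of each list. Intervals are given only for shares of regions and cover counting error alone.

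Named are the 5 farthest members, the 10 of highest mean rank, the 5 of smallest p in each direction, the 2 regions on each side of the distance limit, the 10 nearest genes with most members, and up to 4 genes per list. The members, gene lists and words were chosen with earlier results of these data known. Chosen beyond this rule after their values were seen were the widest member and the members at RefSeq starts, tRNA genes, enhancers and words. The alternatives comprised only peaks of −log10 q 5 or more, peaks covering 50% of a region, a limit of 100 kb, distance from lncRNA genes too, lists of 27628 peaks, rank by fold, other scalings, windows of 200 bp, a replicate block and leaving out each library. Distance from RefSeq mRNA starts was added after seeing the data. A few regions and genes that the rule names are not reported here.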

Additional observations from a re-analysis of the deposited data

How the results depend on the processing

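A limit of 100 kb kept 1410 members, and distance from lncRNA genes as well kept 1220. The CTCF share at 100 kb was 3.26%. With equally long lists the age difference in rank had the opposite sign (−2.21 points), as had its excess over the other shared regions (−2.79), and the cause was not tested. Leaving out 1 library gave an excess from −0.214 (without young 3) to 1.92, a far minus other difference from −8.85 to −7.99 points in rank, −0.153 to −0.138 in log2 fold and −64.3 to −56.5 bp in width. In these last 3 the p was 0.0625, the smallest that 5 libraries allow. Also far from RefSeq mRNA starts were 2355 members. Young and middle-aged libraries of the same number did not deviate together on the normalized values (correlations over shared regions 0.00496, 0.0121 and −0.0277). This cannot show whether they were prepared together, since the normalization removes shifts of a whole library. With a replicate block the ratio of far peaks was 1.51 and the rank difference 9.69 (both exact p = 0.25), and limma called 0 members, as it did under the stricter q, 50% cover, 100 kb, other scalings, ranks and each library left out. Without scaling the median log2 difference was 0.21 over all shared regions and 0.19 over the members. Depth limited the weakest members, with as few as 9 reads over a summit.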
